A study of Homo sapiens with 24 samples.

Results

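ATF4 and 5 transcription factors that act with it in stress signalling (ATF3, ATF5, DDIT3, CEBPB and CEBPG) were described over 6 HAP1 lines and 3 treatment arms. The members were taken by symbol from the array's annotation, with the probe set of highest mean standing for each gene, and they are 6 genes, of which 5 are among the 22395 genes with a probe set of their own symbol. The only probe set of ATF5 also carries the symbol of a microRNA gene, so no value is given for ATF5. All 5 measured members passed the filter on low values. HAP1 is a near-haploid human line derived from KBM-7, a line from chronic myelogenous leukemia. The arms were SA100 (read as sodium arsenite, 100 µM for 2 h; 6 arrays), lomustine, an alkylating drug (200 µM for 2 h; 9 arrays), and no drug (9 arrays). The lines were S51A, named for an alanine in place of the serine of eIF2-alpha that stress kinases phosphorylate, lines lacking the kinases HRI, GCN2, PKR or PERK, and the parental line PAR. In S51A, HRI and PAR the lomustine and no drug arms had 2 arrays each, lettered A and B. Every other group of line and arm had 1 array. Each genotype was represented by 1 purchased line, so genotype and line cannot be told apart. The titles of the SA100 arrays name SA100 while their agent field names lomustine; they were grouped by title.

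The integrated stress response starts when HRI, GCN2, PKR or PERK phosphorylates eIF2-alpha. General translation then falls, while the mRNA of ATF4 is translated better because of short reading frames in its leader, so ATF4 is controlled to a large extent at the protein level. ATF4 binds DNA as a dimer with partners such as the C/EBP proteins, and it activates ATF3 and DDIT3, whose product CHOP promotes cell death when stress persists. HRI is the kinase known to answer arsenite. Array values measure transcripts only, so the translation of ATF4 was not observed here.

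Values are log2 units of RMA, a procedure that corrects background, equalizes arrays and summarises probes. The median of all values of the table was 2.42, and a value below it was treated as not told from background. A gene passed a test where its limma p, adjusted over 17526 genes, was under 0.05. The labels do not say whether repetitions are separate cultures, so p-values measure the spread between these arrays, and that between repetitions may be technical. In the arm comparisons and S51A over all arms, this spread also includes unequal responses of the lines to the agents. In bulk samples fewer cells of a type and less RNA per cell cannot be told apart. Repetition B of S51A with lomustine stood apart: 8.37% of its probe sets lay over 1 log2 unit from the median array, against 0.739% to 3.16% in the other 23 arrays. The main differences of S51A in DDIT3, ATF3 and CEBPG that include it are given with and without it. Single genes of the lists and correlations are given only with it. Transcripts of EIF2S1 (eIF2-alpha) and the 4 kinase genes did not check the labels, since the arrays of the line named for each gene overlapped those of the other lines. Of 11 measured blood markers 7 averaged at or above the median of all values, while PTPRC and LYZ did not pass the filter. Markers of blood, epithelium and fibroblasts had mean levels of 2.20 to 3.17 on every array.

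ATF3 rose with both agents, and more with SA100 than with lomustine. ATF3 (probe set 16677278, chromosome 1) encodes a stress-induced factor that can repress or activate transcription. With SA100 it measured 5.96 in S51A, 6.38 in HRI, 6.85 in GCN2, 6.41 in PKR, 6.49 in PERK and 6.59 in PAR. With lomustine it measured 4.43 and 4.31 in S51A, 5.01 and 5.15 in HRI, 5.54 in GCN2, 5.24 in PKR, 5.11 in PERK, and 5.35 and 6.19 in PAR. Without drug it measured 3.46 and 3.72 in S51A, 3.98 and 4.51 in HRI, 2.90 in GCN2, 3.98 in PKR, 3.93 in PERK, and 4.13 and 2.94 in PAR. Every SA100 array was higher than every no drug array, and the lomustine arrays lay between them with overlap on both sides. The mean was 6.45 ± 0.293 with SA100 (SD, n = 6), 5.15 ± 0.563 with lomustine (SD, n = 9) and 3.73 ± 0.538 without drug (SD, n = 9). The difference was 2.71 for SA100 against no drug (SE 0.234, adjusted p = 1.32e-07), 6.53-fold. It was 1.42 for lomustine against no drug (SE 0.208, adjusted p = 0.000659), 2.67-fold, and 1.29 for SA100 against lomustine (SE 0.234, adjusted p = 0.00257). These 3 comparisons share arms. ATF3 was higher in all 6 lines in each of them, and it passed the test in all 40 other settings tried for each.

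The sequence before 1 of the 2 RefSeq starts of ATF3 is shown because it holds a match to the core of the amino acid response element. ATF4 and C/EBP dimers are known to bind that element. Capitals mark the match to TGATGNAA, at -191 to -184 from the most upstream RefSeq start. The 250 bases lie at chr1:212565157-212565406 (plus strand, GRCh38.p14, RefSeq).

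ATF3: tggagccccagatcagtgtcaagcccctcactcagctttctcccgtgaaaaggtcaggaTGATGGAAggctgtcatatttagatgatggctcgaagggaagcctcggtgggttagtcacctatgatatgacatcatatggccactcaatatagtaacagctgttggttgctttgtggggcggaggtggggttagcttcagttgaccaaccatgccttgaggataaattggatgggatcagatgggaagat

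A set of 4 motifs was searched on both strands in the 250 bases before each of 35116 RefSeq starts. TGATGNAA was found in 3.14% of these windows, TGACGTCA (cyclic AMP response element) in 1.65%, TGANTCA (AP-1 site) in 6.57% and TTGCNNAA (C/EBP site) in 9.05%. The 6 members have 13 such windows, of which 5 held a match to any of the 4, against 18.81% of all windows. The 2 matching windows of DDIT3 overlap and share a site. Another 1 of the 5 is of ATF5, the member without a value here. Of the 2 windows of ATF3 only the one shown held a match. The windows of ATF4 and CEBPB held none. A match is a description of letters and does not show that a factor binds there.

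DDIT3 was near background in untreated cells and rose with SA100, where its lowest value was in S51A. DDIT3 (probe set 16766578, chromosome 12) encodes CHOP, a partner of C/EBP proteins that is induced by ATF4. With SA100 it measured 2.76 in S51A, 3.62 in HRI, 4.93 in GCN2, 4.96 in PKR, 4.98 in PERK and 3.64 in PAR. With lomustine it measured 2.46 and 2.17 in S51A, 2.75 and 3.98 in HRI, 3.51 in GCN2, 3.22 in PKR, 2.85 in PERK, and 3.76 and 4.63 in PAR. Without drug it measured 2.11 and 2.35 in S51A, 3.06 and 2.16 in HRI, 2.35 in GCN2, 1.97 in PKR, 2.13 in PERK, and 2.20 and 2.25 in PAR. Of the 9 no drug arrays, 8 were below the median of all values, the exception being HRI A, so differences from this arm may understate the change. In the SA100 arm GCN2, PKR and PERK were high, HRI and PAR lay lower, and S51A was lowest. The difference was 1.81 for SA100 against no drug (SE 0.313, adjusted p = 0.00161), 3.50-fold. It was 0.97 for lomustine against no drug (SE 0.278, 95% interval 0.40 to 1.55, adjusted p = 0.099) and 0.83 for SA100 against lomustine (SE 0.313, adjusted p = 0.122), neither past the test. The SA100 difference passed in all 40 other settings. A second DDIT3 probe set (16766588) stayed at 1.36 to 1.63 on all arrays, and averaging it in made the SA100 difference 0.96 and the lomustine difference 0.53. Without PAR lomustine B the difference of SA100 from lomustine was 0.98 (adjusted p = 0.0475), and without the PAR line it was 1.17 (adjusted p = 0.0404).

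DDIT3 shares its upstream region with MBD6, whose start lies 197 bases away on the other strand. The stretch between the starts is shown because it is all the sequence that belongs to neither gene. It is at chr12:57520518-57520714 (minus strand, GRCh38.p14, RefSeq) and held no match to the 4 motifs. An AP-1 match, in capitals below, lies beyond the start of MBD6. The 30 bases shown with it are at chr12:57520735-57520764 on the same strand.

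DDIT3 stretch up to MBD6: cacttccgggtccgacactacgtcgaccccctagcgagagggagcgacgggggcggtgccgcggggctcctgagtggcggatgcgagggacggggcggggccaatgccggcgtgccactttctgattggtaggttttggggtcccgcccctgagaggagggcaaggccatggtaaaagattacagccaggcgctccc
DDIT3 AP-1 site: gcgcgcgcaTGACTCAcccacctcctccgt

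CEBPB rose with both agents by less than 1 log2 unit, and the lomustine call changed with the setting. CEBPB (probe set 16914812, chromosome 20) encodes a C/EBP protein that dimerizes with ATF4 and CHOP. With SA100 its lowest, median and highest values were 4.96, 5.06 and 5.41 (6 arrays). With lomustine they were 4.33, 5.01 and 5.33 (9 arrays), and without drug they were 4.17, 4.48 and 4.93 (9 arrays). The SA100 arrays lay above every no drug array, while the lomustine arrays overlapped them, with PERK as the low lomustine array. The difference was 0.64 for SA100 against no drug (SE 0.114, adjusted p = 0.00206), 1.56-fold, and it lost the call in 1 of 40 settings, the mean of line-wise contrasts (adjusted p = 0.0796). It was 0.47 for lomustine against no drug (SE 0.101, adjusted p = 0.0243), 1.38-fold, with an increase in 5 of 6 lines. That call did not hold in 16 of 40 settings, in which the difference was 0.43 to 0.50 (adjusted p over all settings 0.00908 to 0.517). They include leaving out, one at a time, the PAR, S51A, HRI, GCN2 or PKR line, PAR no drug A or B, S51A no drug B, PAR lomustine A, and the single no drug or lomustine array of GCN2 or PKR. The difference between the treated arms was 0.17 (95% interval -0.07 to 0.40, adjusted p = 0.421).

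ATF4 itself (probe set 16930299, chromosome 22) did not pass the test in any arm comparison. Its lowest, median and highest values were 8.28, 8.45 and 8.61 with SA100, 8.35, 8.50 and 8.78 with lomustine, and 8.06, 8.20 and 8.57 without drug. The ranges of the arms overlapped, with HRI A as the high no drug array. The difference was 0.30 for lomustine against no drug (SE 0.0779, 95% interval 0.14 to 0.46, adjusted p = 0.0655), 1.23-fold, with a higher mean in all 6 lines. It passed the test in 4 of 40 settings: quantile normalization again (0.39, adjusted p = 0.0165), a trended robust prior, leaving out HRI no drug A (0.35, adjusted p = 0.0209) and leaving out the HRI line (0.37, adjusted p = 0.0429). For SA100 against no drug it was 0.21 (95% interval 0.03 to 0.39, adjusted p = 0.225).

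CEBPG (probe set 16860644, chromosome 19) encodes a C/EBP protein without an activation domain of its own, known as a dimer partner of ATF4. Its lowest, median and highest values were 5.94, 6.24 and 6.51 with SA100, 4.81, 6.0 and 6.59 with lomustine, and 5.87, 6.07 and 6.24 without drug. The low lomustine array was S51A B, the array that stood apart. The difference was 0.14 for SA100 against no drug (95% interval -0.21 to 0.49, adjusted p = 0.744). For lomustine against no drug it was -0.17 (95% interval -0.48 to 0.14, adjusted p = 0.649), and -0.04 without S51A lomustine B. A match to the amino acid response element core, in capitals, lies at -42 to -35 from 1 of the RefSeq starts of CEBPG and is shown for comparison with that of ATF3. The 30 bases shown with it are at chr19:33374060-33374089 (plus strand, GRCh38.p14, RefSeq).

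CEBPG: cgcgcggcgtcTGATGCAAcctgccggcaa

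Over the members, 3 of 5 were higher with SA100 than without drug (ATF3, DDIT3 and CEBPB), against 2.09% of the genes tested. With lomustine 2 of 5 were higher than without drug (ATF3 and CEBPB), against 0.245% of the genes tested. Between the treated arms 1 of 5, ATF3, was higher with SA100, against 5.46% of the genes tested. None was lower in these comparisons. ATF3, DDIT3 and CEBPB were higher with SA100 in each of the 6 lines, which held for 8.39% of the genes tested, and ATF4, ATF3 and DDIT3 were so with lomustine, which held for 2.14%. Both ATF3 and CEBPB had every SA100 array above every no drug array, which held for 1.1% of the genes tested.

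**Figure D1:**
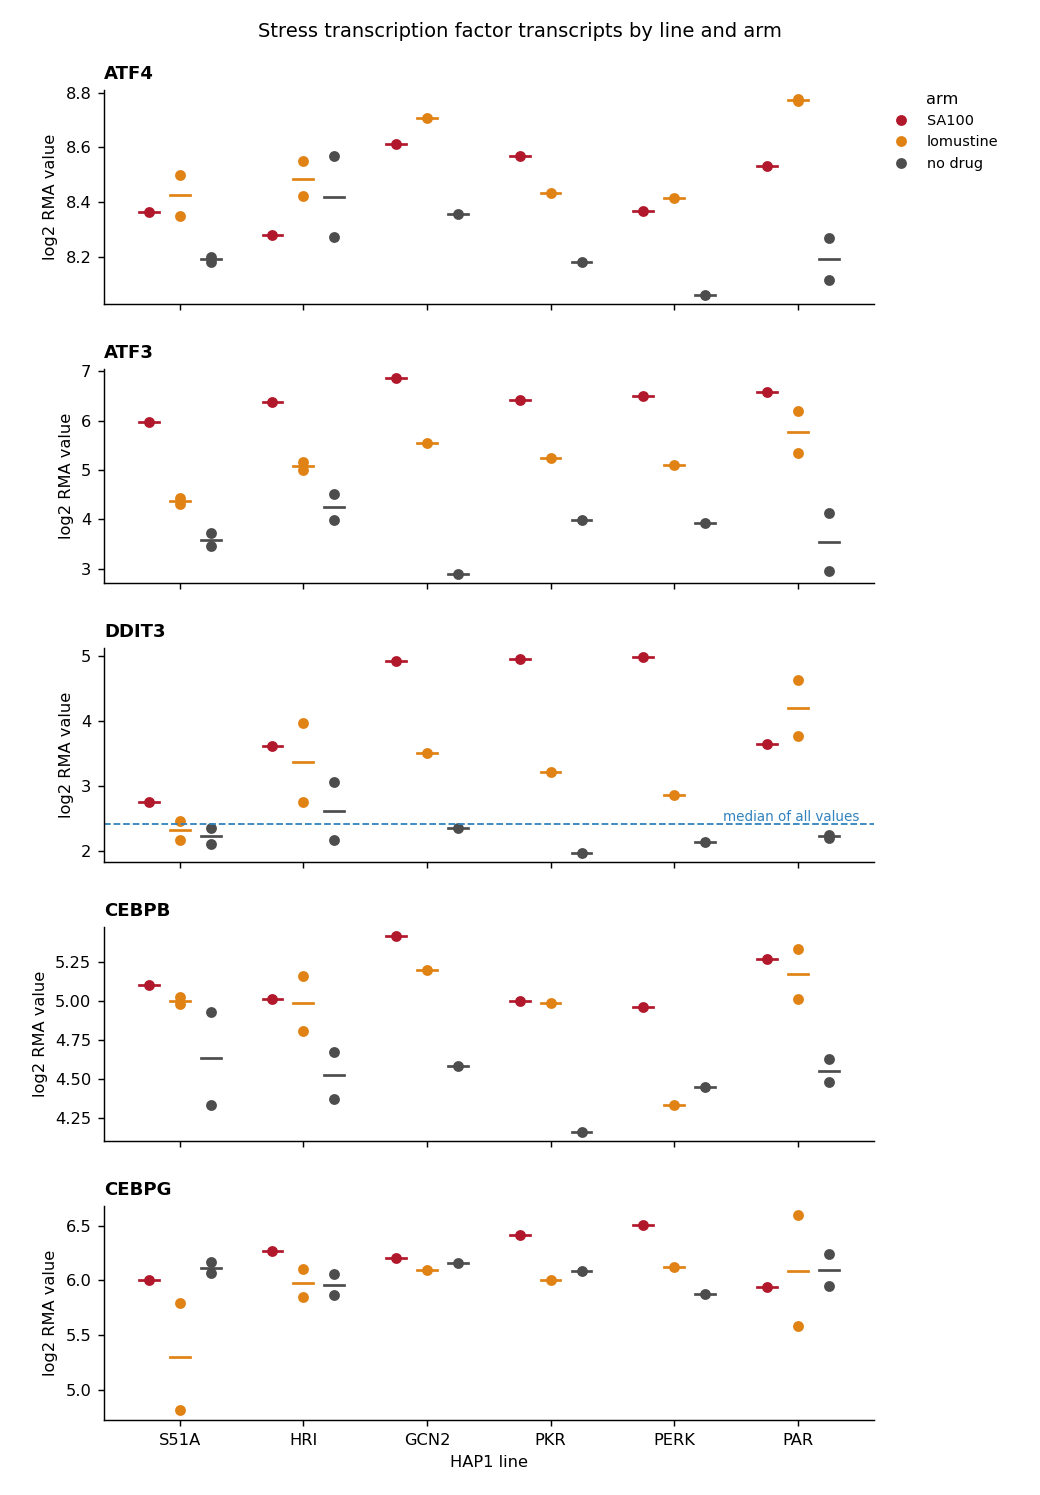
Log2 RMA values of the 5 measured members on each array (points, vertical axis) by HAP1 line (horizontal axis) and arm (colours); short bars are group means, and the dashed line for DDIT3 is the median of all values, 2.42. ATF3 separates SA100 from no drug in every line, while DDIT3 with SA100 is lowest in S51A at 2.76.

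The main question on the lines was whether S51A, whose eIF2-alpha cannot be phosphorylated at that serine, differed from the other 5. Over all arms, no member passed the test, against 5.95% of the genes tested. The count of members with an unadjusted p under 0.05 was 2, DDIT3 and ATF3, beside 2794 of the 17526 genes tested. DDIT3 had a difference of -0.87 in S51A (SE 0.299, 95% interval -1.49 to -0.25, unadjusted p = 0.0084, adjusted p = 0.105). ATF3 had -0.57 (SE 0.224, 95% interval -1.04 to -0.11, adjusted p = 0.174), and CEBPG -0.33 (95% interval -0.66 to 0.01, adjusted p = 0.332). For ATF4 the difference was -0.11 (95% interval -0.28 to 0.07, adjusted p = 0.627) and for CEBPB 0.08 (95% interval -0.14 to 0.31, adjusted p = 0.804). Without S51A lomustine B the values were -0.76 for DDIT3 (adjusted p = 0.217), -0.47 for ATF3 (adjusted p = 0.341) and -0.11 for CEBPG (adjusted p = 0.794). A missed threshold does not show that the lines were alike.

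Within the arms, again no member passed the test, against 0.205% of the genes tested with SA100, 0.411% with lomustine and 0.747% without drug. With SA100 the S51A array was below all 5 other lines for both DDIT3 and ATF3, which with 1 array a line held for 17.8% of the genes tested. The DDIT3 difference was -1.67 (SE 0.473, 95% interval -2.71 to -0.62, unadjusted p = 0.00495, adjusted p = 0.675) and the ATF3 difference -0.58 (95% interval -1.53 to 0.36, unadjusted p = 0.201). With lomustine both S51A arrays were below all 7 other arrays for DDIT3 and ATF3, which held for 2.88% of the genes tested. Here DDIT3 differed by -1.11 (SE 0.351, 95% interval -1.89 to -0.34, adjusted p = 0.358) and ATF3 by -0.98 (SE 0.317, 95% interval -1.68 to -0.28, adjusted p = 0.388). Without S51A lomustine B these were -0.97 and -0.92 (adjusted p = 0.796 and 0.752). Averaging both DDIT3 probe sets gave -0.81 with SA100 and -0.57 with lomustine, while against PAR alone DDIT3 differed by -0.88 with SA100 and -1.88 with lomustine. CEBPG differed by -0.75 with lomustine (adjusted p = 0.576), which rested on repetition B: the value was -0.26 without it, and -1.24 (adjusted p = 0.0461) without A. Without drug no member had S51A below all other arrays, which held for 3.42% of the genes tested. The no drug differences lay between -0.13 for ATF3 (95% interval -0.83 to 0.57) and 0.18 for CEBPB (95% interval -0.29 to 0.64). For ATF4 they were -0.11 with SA100, -0.14 with lomustine and -0.05 without drug.

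**Figure D2:**
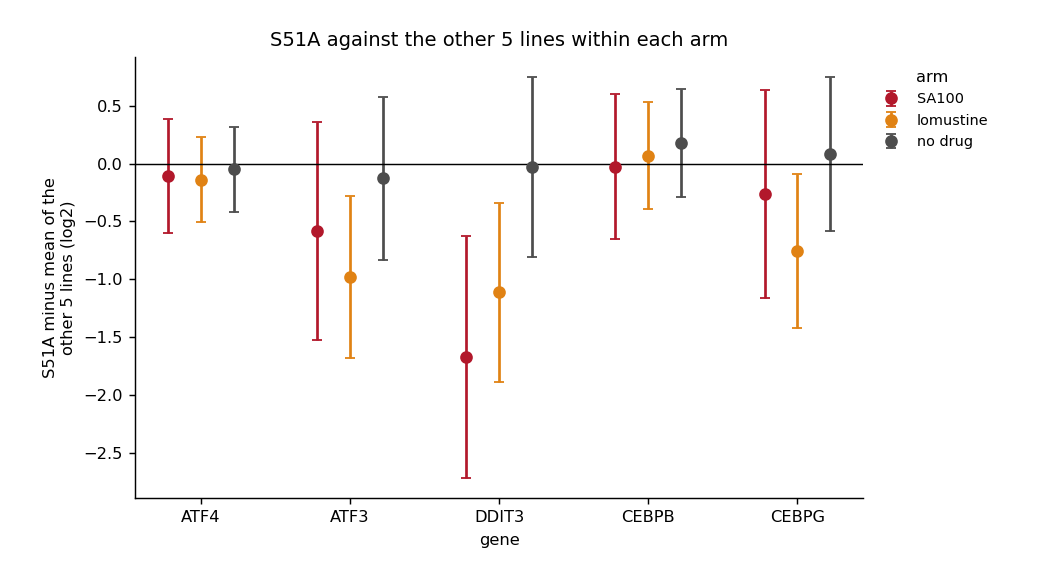
Difference of S51A from the mean of the other 5 lines (vertical axis, log2) for each member (horizontal axis) within each arm (colours); bars are 95% intervals from the model with 1 mean per group of line and arm. The intervals of DDIT3 lie below 0 with SA100 (-2.71 to -0.62) and lomustine (-1.89 to -0.34). Those of ATF3 (-1.68 to -0.28) and CEBPG (-1.42 to -0.09) do so with lomustine. No difference passed the test after adjustment over all genes.

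Whether the response of S51A to an agent differed from that of the other lines was tested as an interaction. DDIT3 was 0.53 higher with SA100 than without drug in S51A, against 1.01 in HRI, 2.57 in GCN2, 2.99 in PKR, 2.85 in PERK and 1.42 in PAR. The response of S51A was the lowest of the 6, and differed from the mean of the others by -1.64 (SE 0.588, 95% interval -2.94 to -0.34, unadjusted p = 0.0183), which did not pass adjustment. With lomustine the DDIT3 response was 0.09 in S51A, against 0.75 in HRI, 1.16 in GCN2, 1.25 in PKR, 0.72 in PERK and 1.98 in PAR. That differed by -1.08 (95% interval -2.18 to 0.01, adjusted p = 0.998), and by -0.94 without S51A lomustine B. Against PAR alone the DDIT3 differences in response were -0.89 for SA100 and -1.89 for lomustine. Since most untreated values of DDIT3 were not told from background, its responses in the lines other than HRI may be understated.

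ATF3 responded to SA100 by 2.37 in S51A, against 2.14 in HRI, 3.96 in GCN2, 2.44 in PKR, 2.56 in PERK and 3.05 in PAR. S51A was thus within the range of the others, with a difference of -0.45 (95% interval -1.63 to 0.72). To lomustine it responded by 0.78 in S51A, against 0.83 in HRI, 2.64 in GCN2, 1.26 in PKR, 1.18 in PERK and 2.24 in PAR. The difference was -0.85 (95% interval -1.84 to 0.14, adjusted p = 0.998), with S51A lowest and HRI next to it. Without S51A lomustine B the difference was -0.79, and S51A was no longer lowest. The large responses of GCN2 rest on a single no drug array at 2.90, and without that array the lomustine difference was -0.60 and the SA100 difference -0.17.

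ATF4 responded by 0.17 to SA100 and 0.23 to lomustine in S51A, inside the ranges of the other lines (-0.14 to 0.39 and 0.07 to 0.58). The differences in response were -0.06 (95% interval -0.67 to 0.56) and -0.09 (95% interval -0.61 to 0.43). For CEBPB the response of S51A to SA100 was 0.47, just under the 0.49 to 0.84 of the other lines, and its response to lomustine, 0.37, lay inside their range of -0.11 to 0.82. CEBPG responded to lomustine by -0.81 in S51A, against -0.08 to 0.25 elsewhere. That difference of -0.83 (adjusted p = 0.998) was -0.34 without S51A lomustine B.

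The response to lomustine was lowest in S51A for 3 of 5 members (ATF3, DDIT3 and CEBPG), as it was for 29.9% of the genes tested. Without S51A lomustine B it was lowest for 2 of 5 (DDIT3 and CEBPG), against 10.7% of the genes tested, and ATF3 also dropped out without S51A no drug B, HRI no drug A or HRI lomustine B. For SA100 this held for 2 of 5 (DDIT3 and CEBPB), against 15.3% of the genes tested, and for 1 of 5 (DDIT3) without S51A no drug A. Over all single arrays left out where S51A kept both arms, DDIT3 stayed lowest in S51A with either agent, and the count was 1 to 4 with SA100, the 4 without HRI SA100, and 2 to 4 with lomustine. Across all genes limma called 0 interactions of S51A with either agent, or 0% of the genes tested, with 141 at an unadjusted p under 0.05 for SA100 and 243 for lomustine. Both counts are below the share of 0.05 that falls there where nothing differs. The 0 calls therefore do not show that the lines responded alike.

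In the line lacking HRI, the responses to SA100 of ATF4 (-0.14), ATF3 (2.14), DDIT3 (1.01) and CEBPB (0.49) were the lowest among the 5 lines with intact eIF2-alpha. That made 4 of 5 members, against 15.7% of the genes tested. Without HRI no drug A it was 2 of 5 (ATF4 and ATF3), against 22.1%. Set against the mean of GCN2, PKR, PERK and PAR, the differences were -1.45 for DDIT3 (95% interval -2.79 to -0.11, unadjusted p = 0.0364), -0.87 for ATF3 (95% interval -2.08 to 0.34), -0.46 for ATF4 (95% interval -1.10 to 0.17) and -0.24 for CEBPB (95% interval -1.04 to 0.57). None passed the test, and 0 genes did (0% of the genes tested, with 209 at an unadjusted p under 0.05). HRI no drug A, whose DDIT3 was the highest of that arm, enters each of these: without it the differences were -1.0 for DDIT3, -1.13 for ATF3, -0.32 for ATF4 and -0.08 for CEBPB. The ATF3 difference was -0.55 without the GCN2 no drug array. The no drug mean of HRI was the highest of any line for ATF4 (8.42), ATF3 (4.25) and DDIT3 (2.61). With SA100, HRI was still lowest of the intact lines in ATF4, ATF3 and DDIT3, though DDIT3 was 3.62 beside 3.64 in PAR. Its CEBPB, 5.01, was not lowest, with PERK at 4.96. The DDIT3 response was 1.42 in PAR, and 2.57 to 2.99 in GCN2, PKR and PERK. With lomustine the response of HRI was lowest for 2 of 5 members, ATF4 (0.07) and ATF3 (0.83), against 15.7% of the genes tested, and for 2 to 4 with 1 array left out, the 4 without either PERK array. The ATF3 difference was -0.99 (95% interval -2.03 to 0.04, unadjusted p = 0.0582), and again 0 genes passed (0%, with 172 at an unadjusted p under 0.05). The counts of 209 and 172 are also below a share of 0.05, so 0 calls do not show that HRI responded like the other lines.

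**Figure D3:**
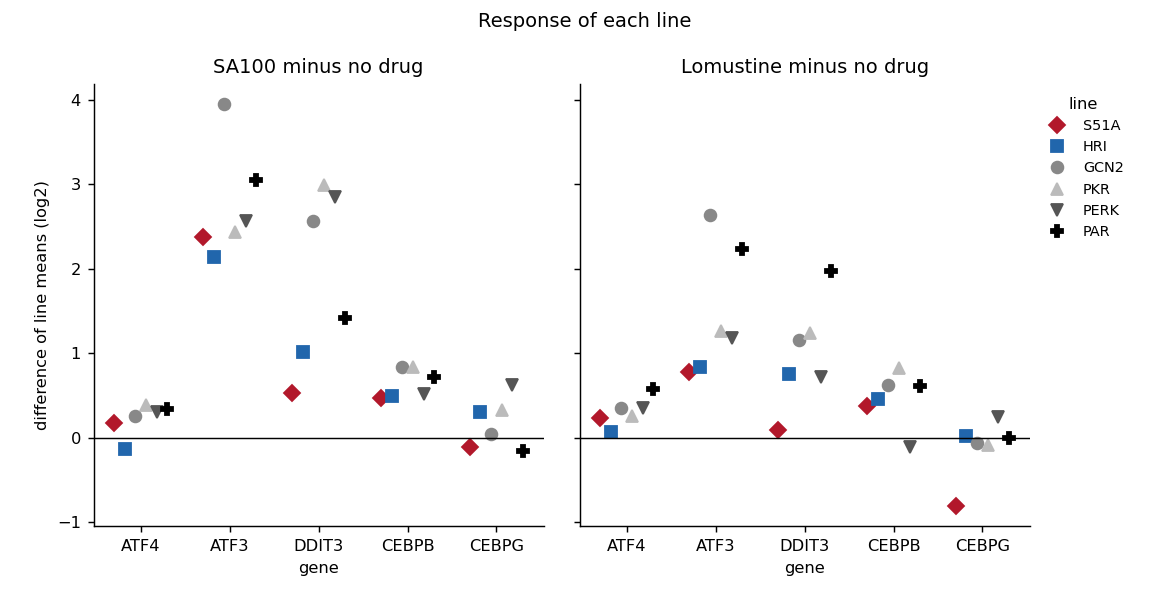
Difference between the mean of an agent and of no drug in each line (vertical axis, log2) for each member (horizontal axis), for SA100 (left) and lomustine (right); symbols are lines. S51A is lowest for DDIT3 in both panels (0.53 and 0.09), while the ATF4 responses of all lines lie between -0.14 and 0.58.

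The genes around the members were read from 3 lists. The lists were chosen with earlier results of these data known, so their shares beside those of all genes are descriptions only. Of 43 target genes of ATF4 and CHOP, 42 were measured and all of these passed the filter. With SA100, 12 of 42 were higher and 1 lower than without drug, against 2.09% and 0.953% of the genes tested, with a median difference of 0.12 against 0.04 over all genes. The strongest by p were PPP1R15A, which directs a phosphatase to eIF2-alpha (1.83, SE 0.144), SESN2, a sensor in growth control (2.43, SE 0.204), CHAC1, which degrades glutathione (2.98, SE 0.324), and DDIT4, an inhibitor of mTOR signalling (2.66, SE 0.308). With lomustine 7 of 42 were higher, against 0.245% of the genes tested, and 0 lower, with a median of 0.05 against -0.04 over all genes. Here 15 of 42 were at an unadjusted p under 0.05, against 2472 of the 17526 genes tested. The 7 higher genes included SLC38A2, an amino acid transporter (0.75, SE 0.0862), SESN2 (1.58, SE 0.181), ULBP1, a ligand of a killer cell receptor (1.84, SE 0.233), and DDIT4 (1.77, SE 0.273). Between the treated arms 6 were higher with SA100 and 2 lower, against 5.46% and 0.479% of the genes tested. TNFRSF10B, a death receptor, differed by 0.72 (SE 0.111) and TRIB3, a pseudokinase that binds ATF4, by 0.55 (SE 0.111).

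In S51A over all arms, 8 of the 42 target genes were lower than in the other 5 lines and 0 higher, against 2.87% of the genes tested lower. The median was -0.06 against -0.01 over all genes. At an unadjusted p under 0.05 there were 14 of 42, against 2794 of the 17526 genes tested. SESN2 differed by -1.25 (SE 0.194, adjusted p = 0.000185), ULBP1 by -1.26 (SE 0.251, adjusted p = 0.00246), DDIT4 by -1.41 (SE 0.293, adjusted p = 0.00372) and SLC38A2 by -0.43 (SE 0.0927, adjusted p = 0.00559). Without S51A lomustine B the counts were 6 lower and 1 higher with a median of -0.01, and over 39 settings 5 to 10 lower and 0 to 2 higher. Within the arms 1 target gene was lower in S51A with SA100, against 0.0456% of the genes tested, and 0 to 2 were over 38 settings. With lomustine 3 were lower, against 0.148%, and 1 to 9 were over 39 settings (1 without repetition B). Without drug 0 were lower, against 0.154%, and 1 was at an unadjusted p under 0.05, against 1016 of the 17526 genes tested. A marker of another cell type moved with S51A in these libraries: EPCAM, an epithelial surface protein, was higher by 2.04 over all arms (SE 0.307, adjusted p = 0.000127). It was the 1 of 8 epithelial markers past the test; KRT8 differed by 0.38 and the other 6 by -0.11 to -0.01. The list averaged 2.90 to 3.17 a gene in S51A arrays and 2.65 to 2.93 in the other lines, with EPCAM the largest contributor, and its part in these results was not tested.

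Of 36 leucine zipper relatives and partners of the members, 32 were measured. With SA100 6 of them were higher, against 2.09% of the genes tested, and 0 lower. The higher genes were led by the AP-1 subunits JUN (6.21, SE 0.316), FOS (3.68, SE 0.2), FOSB (2.06, SE 0.195) and JUND (1.81, SE 0.184). At an unadjusted p under 0.05 there were 12 of 32 with SA100, against 2890 of the 17526 genes tested. With lomustine 3 were higher, against 0.245% of the genes tested, and 0 lower. The 3 were FOSB (1.55, SE 0.173), JUN (2.11, SE 0.281) and FOS (1.15, SE 0.177). Here 5 of 32 were at an unadjusted p under 0.05, against 2472 of the 17526 genes tested. In S51A 2 of 32 were lower over all arms, against 2.87% of the genes tested, and 0 higher. The 2 lower genes were NFE2L2, the oxidative stress factor NRF2 (-0.63, SE 0.151), and MAF (-0.40, SE 0.0954). An unadjusted p under 0.05 was found in S51A for 6 of 32, against 2794 of the 17526 genes tested. Of 20 genes for eIF2-alpha, its kinases, phosphatases and exchange factor, 19 were measured. PPP1R15A was the 1 gene higher with either agent, by 1.83 with SA100 and 0.82 with lomustine (SE 0.127). Of the genes tested, 2.09% were higher with SA100 and 0.245% with lomustine. GCN1, a coactivator of GCN2, was lower with SA100 (-0.54, SE 0.144), against 0.953% of the genes tested. None of the 19 passed the test in S51A over all arms, against 5.95% of the genes tested. At an unadjusted p under 0.05 there were 3 of 19, a share near the 2794 of 17526 over all genes. EIF2AK3, which encodes PERK, differed by -0.51 (adjusted p = 0.126).

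**Figure D4:**
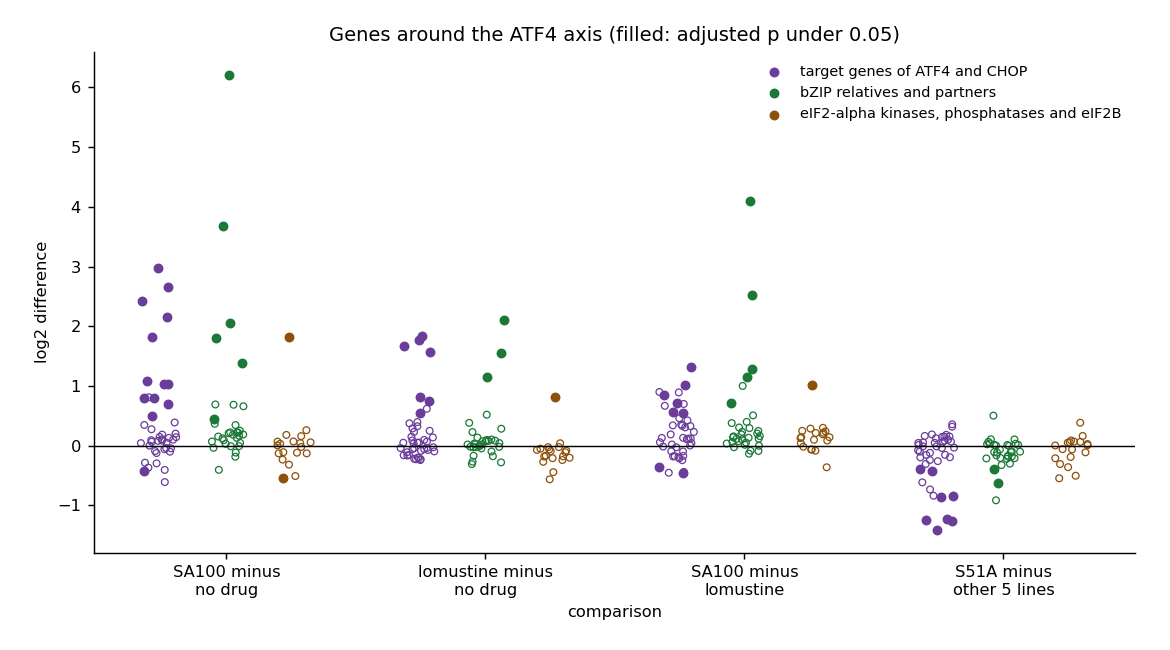
Log2 differences (vertical axis) of the genes of 3 lists (colours) in 4 comparisons (horizontal axis); filled points passed the test and open points did not. JUN with SA100 is the highest point at 6.21, and the filled target genes in S51A all lie below 0, DDIT4 lowest at -1.41.

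Over the 18 group means the members differed in how they varied together, given here as descriptions of points that share arrays and arms. ATF3 and DDIT3 had the highest Pearson r of the 10 pairs, 0.857, and CEBPB and CEBPG the lowest, 0.029. ATF4 had r of 0.715 with CEBPB, 0.663 with DDIT3 and 0.585 with ATF3. Among all genes tested, those most like ATF3 were MXD1 (r = 0.952), CLK3 (0.938) and BAG3 (0.936). Most like DDIT3 were MARCHF7 (r = 0.931), CTH (0.923) and DDIT4 (0.920). For CEBPB they were GADD45B (r = 0.900), SNORD8 (0.892) and PMAIP1 (0.869), and for CEBPG BRIP1 (r = 0.909), NEIL3 (0.909) and ZC3H7A (0.901). The lowest CEBPG group mean was that of S51A with lomustine, 5.31, from repetition A at 5.80 and B at 4.81. No r was computed without B, the array that stood apart, so the r values of CEBPG may rest on it. The closest to ATF4 reached lower values, NFKBIL1 at r = 0.789, LYG1 at 0.785 and TMEM79 at 0.777.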

How the data were processed

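Transcripts of 24 samples were measured on an Affymetrix array. The authors deposited 1 table of 53617 probe sets in log2 units, made with RMA and the R package affy, per the submitters' processing notes; versions, filters and a genome build are not given in the sources used here. Arrays give no read depth, and their number limits the precision. Samples were grouped by title.

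Of 25713 annotated probe sets, 23871 had 1 symbol, 1842 several and 27904 of the table had none; 90 symbols were updated through Entrez IDs with the RefSeq table. This gave 22395 genes, 632 of them with more than 1 probe set, for which that of highest mean was kept. A gene was tested where at least 2 arrays reached the median of all values, 2.42 (17526 genes).

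Tests were two-sided, with limma 3.58.1 in R 4.3.3 and Benjamini-Hochberg adjustment over all genes tested, at 0.05. Terms for arm and line (16 residual degrees of freedom) gave the arm comparisons and S51A over all arms. A mean for each of 18 groups (6 residual degrees of freedom) gave S51A within arms and the interactions, which lends the spread of the 6 duplicated groups to the 12 with 1 array. The fits were tested on simulated data with a shift for lomustine and a shift for S51A. No interaction was simulated, so finding one was not checked. Letters were not taken to pair arrays: differences between B and A in the lomustine and no drug arms correlated over genes with r of -0.386 in S51A, -0.56 in HRI and 0.334 in PAR.

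The members and lists were chosen with earlier results of these data known. Named were the members, the 3 genes most like each over the 18 group means, and from each list up to 4 genes past the test with the smallest p, or the 2 with the smallest p. EPCAM was named after its value was seen. Alternatives were other filters, probe set means, quantile normalization again, centring, a trended robust prior, line-wise contrasts, only the arms compared, a spread between lines, PAR alone, a replicate block and arrays or lines left out.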

Additional observations from a re-analysis of the deposited data

Results flagged for a closer look

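DDIT3 without drug had 1 array far from the others of its arm. HRI repetition A was at 3.06 on the log2 scale, and the nearest of the other 8 arrays at 2.35, a gap of 0.648 of the range against a critical value of 0.493 for 9 arrays. Chance flags about 1 in 20 groups. Without this array the difference of S51A from the other 5 lines over all arms was -0.83 for DDIT3, and the SA100 response of HRI differed from the other lines with intact eIF2-alpha by -1.0.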

How the results depend on the processing

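Of 2125 values of the members under the alternatives, 2050 kept their direction and side of the threshold, 17 were no longer past it, 7 came to pass it and 51 changed sign, none of which was past the threshold. The changes that touch a call of ATF4, DDIT3, CEBPB or CEBPG stand beside those results. Leaving out the arrays of single-array groups, leaving out PAR lomustine A with S51A lomustine B, and the counts of lowest responses with 1 array left out were alternatives chosen after seeing the data.

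Sign changes with one array or line left out gave ranges through 0. In CEBPB these were -0.014 to 0.14 for S51A over all arms, -0.12 to 0.47 without drug, -0.083 to 0.13 with lomustine and -0.072 to 0.042 with SA100, and for its responses in S51A -0.40 to 0.185 (lomustine) and -0.50 to 0.088 (SA100). The lomustine response of HRI gave -0.22 to 0.15 for CEBPB, -0.14 to 0.12 for CEBPG and -1.14 to 0.095 for DDIT3, and its SA100 response -0.032 to 0.23 for CEBPG. S51A without drug gave -0.33 to 0.0029 for ATF3 and -0.15 to 0.088 for DDIT3, and CEBPG in lomustine against no drug -0.27 to 0.016. Quantile normalization again turned CEBPG in S51A without drug (-0.057), CEBPB in S51A with SA100 (0.013), and the S51A responses of ATF4 (0.046 to lomustine, 0.0296 to SA100) and CEBPB (0.15 to lomustine). Centring turned DDIT3 in S51A without drug (0.0040). With PAR alone as the other line, CEBPB turned over all arms (-0.069) and with lomustine (-0.17), ATF3 (0.052) and DDIT3 (0.0047) without drug, and CEBPG with SA100 (0.068) and in its SA100 response (0.048). Without both arrays that stood apart most, CEBPG in lomustine against no drug was 0.027 and the lomustine response of HRI for CEBPB 0.016.

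Counts over all genes moved more, and the cause was not tested. For lomustine against no drug 178 genes passed, with 50 to 310 when one array or line was left out, 91 after centring, 22 by line-wise contrasts and 114 with the compared arms only. SA100 against no drug gave 533 (366 higher, 167 lower), 203 to 939 with one left out, 897 after quantile normalization (521 higher, 376 lower), 280 after centring, 137 by line-wise contrasts and 1216 without both arrays. SA100 against lomustine gave 1041, 330 to 1240, 602 after centring, 107 by line-wise contrasts and 326 with the compared arms only. S51A over all arms gave 1042, 777 to 1228 and 381 against PAR alone. Within no drug it gave 131, 40 to 221, 235 with the spread between lines, 55 against PAR alone and 239 without both arrays. Within lomustine it gave 72, 21 to 1379 (the most without S51A lomustine A), 139 after quantile normalization, 293 with the spread between lines and 29 against PAR alone. Within SA100 it gave 36, 11 to 66, 16 with a strict filter, 23 after centring, 74 with the spread between lines, 10 against PAR alone and 75 without both arrays. The S51A response to lomustine gave 0, and 0 to 9 with one array or line left out. The HRI response to SA100 gave 0, and 1 with a trended robust prior.

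A replicate block of arrays with the same line and letter changed no call of a member: in lomustine against no drug ATF3 was 1.43 (adjusted p = 0.000714) and CEBPB 0.47 (adjusted p = 0.0338), and over all arms DDIT3 in S51A was -0.86 (adjusted p = 0.0756). Whether the letters pair arrays is not given by the labels. Values near background limit DDIT3 in untreated cells, and the 12 groups of 1 array limit the tests within lines.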
